A study of Homo sapiens with 19 samples.

Results

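The 36 imprinted genes considered here were taken by gene symbol from transcript tables of human embryonic stem cells (hESCs) with deletions of Polycomb repressive complex 2 (PRC2), in which 33382 genes were listed. All 36 symbols were found. They lie in 8 regions or as single loci: the IGF2/H19 domain (2 genes) and the KCNQ1OT1 domain (5 genes) on 11p15, 14q32 (3 genes), 15q11 (5 genes), 7q21 (4 genes), 7q32 (2 genes), 20q (4 genes), 19q13 (3 genes) and 8 genes elsewhere. RNA-seq had been done on 19 samples of the H1 hESC line. WT H1 had 2 samples, as did each of 5 knockout lines: those lacking a single enzyme (EZH1-/- H1 or EZH2-/- H1), both enzymes (EZH2-/-/EZH1-/- H1), EED (EED-/- H1) or SUZ12 (SUZ12-/- H1). The 7 other samples, 1 each, came from H1-EED-/-/EED-OE, in which endogenous EED was deleted and EED was expressed from a lentiviral doxycycline (DOX)-inducible transgene: 1 was kept in DOX and 6 were taken 8, 12, 16, 20, 24 and 28 days after its withdrawal. Every group was thus on the H1 background and in defined feeder-free culture. The knockouts were drug-selected clones in which the functional domain of the gene had been removed, and the double knockout was built on an EZH2-/- clone. By the study's own description, H3K27me3 was lost in the EED, SUZ12 and double enzyme knockouts, called PRC2-null below, and was retained at a lower level in EZH1-/- and EZH2-/- H1, which with WT H1 are called the retaining lines. The DOX sample was placed by its treatment label, and its title also carries day 28. The titles give the 2 samples of each knockout line different clone or passage names. Nothing in the sources used here says how the 2 WT H1 samples were obtained. The tests between lines thus measure only the spread between these samples, which may be technical in part.

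Imprinted genes are transcribed mainly from a single parental copy, and the choice is set by DNA methylation laid down in the germ line at control regions that serve whole clusters of genes. PRC2, in which EED and SUZ12 are required partners of the alternative methyltransferases EZH1 and EZH2, places H3K27me3, a repressive histone mark that also covers the silent copy at several imprinted clusters. Many imprinted genes act on fetal and placental growth, and their levels differ widely between undifferentiated cells and endodermal, mesodermal or trophoblast derivatives. A TPM value (a transcript abundance scaled for gene length and depth) sums both copies, so neither parental copy nor loss of imprinting can be read from these values.

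The lines also differed in cell identity. The summed TPM of 7 pluripotency markers (POU5F1, NANOG, SOX2, DPPA4, LIN28A, TDGF1 and ZFP42) was 5075 to 6238 in the 6 samples of the retaining lines and 151 to 469 in the 6 PRC2-null samples. The summed TPM of 8 endoderm and yolk sac markers was 5.66 to 15.05 in the former, against 1547 and 4074 in EED-/- H1, 2881 and 3209 in EZH2-/-/EZH1-/- H1 and 20041 and 20869 in SUZ12-/- H1, and that of 8 mesoderm, mesenchyme and vessel markers was 91.0 to 208.9 against 3471 to 14303. All 8 markers of each of these lists reached a TPM of 1 in every PRC2-null sample. In each retaining sample, 1 or 2 of the endoderm and 5 of the mesoderm markers already did. The endoderm markers did not rank the PRC2-null lines alike. AFP made up most of the SUZ12-/- sum, at 13208 and 13695 TPM. AFP, APOA1, APOA2 and TTR were highest in SUZ12-/- H1 among the PRC2-null samples. SOX17, GATA4 and FOXA2 were lowest there, with SOX17 at 15.95 and 15.45 TPM against 33.52 to 64.07 in the others. GATA6 lay within the range of the others. Not every mesoderm marker rose. In SUZ12-/- H1, CNN1 was at 23.98 and 21.44 TPM against 28.15 and 32.79 in WT H1. KDR was at 55.82 and 55.16 TPM there against 50.88 and 66.09, while the other markers of that list were above WT H1. The sum of 6 trophoblast markers, of which HAND1 is also on the mesoderm list, was 12.15 to 14.84 in the retaining samples and 219.7 to 433.5 in the PRC2-null ones, with HAND1 at 0 in all 6 of the former. The sum of 4 neural ectoderm markers was 94.5 to 196.3 in the retaining samples, 385.1 and 316.2 in EED-/- H1, 230.6 and 210.3 in EZH2-/-/EZH1-/- H1 and 68.7 and 67.1 in SUZ12-/- H1, so that SUZ12-/- H1 was the lowest line here. The 4 neural markers did not move together. PAX6 was at 128.8 and 50.0 TPM in EED-/- H1 and at most 0.70 in the retaining samples. It was at 21.91 and 24.47 TPM in EZH2-/-/EZH1-/- H1 and at 7.94 and 5.66 in SUZ12-/- H1. NES was also higher in EED-/- H1, at 234.35 and 232.32 TPM against 97.78 and 87.88 in WT H1. SOX1 was at 0 and 0.06 TPM in EED-/- H1 against 0.08 and 0.12 in WT H1. OTX2 was at most 33.84 TPM in EED-/- H1 against 30.23 and 57.63 in WT H1. The part of these shifts in any result below was not tested, and in bulk RNA fewer cells of a type and less RNA per cell cannot be told apart. Gene-level TPM did not check the deletions, since only a domain was removed: EED was at 14.2 and 22.4 TPM in EED-/- H1 against 17.3 and 21.96 in WT H1. The transgene could be followed, with EED at 108.5 TPM in DOX and at 12.6 to 31.6 TPM after withdrawal.

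Of the 36 genes, 32 reached a TPM of 1 in at least 2 of the 12 samples of the 6 lines and were tested by limma among 19100 such genes, on log2(TPM + 1). Calls required a change of 3-fold or more and a p-value, adjusted by Benjamini-Hochberg, no higher than 1%. In the 3 PRC2-null lines against the 3 retaining lines, 12 imprinted genes rose, where 13.5% of all genes tested did, and 1 fell, where 5.09% of all genes did. Those that rose were IGF2, H19, CDKN1C, PHLDA2, SLC22A18, DLK1, DIO3, NDN, TFPI2, MEST, PLAGL1 and IGF2R, and SNRPN fell. The median log2 fold change was 0.90 over the 32 genes and 0.29 over all genes. A positive value was found in 27 of the 32, and, since the median of all genes was positive, in most genes tested as well. The exact share of all genes was not computed, so this count is not read as a trait of imprinted genes. In addition, 14 of the 32 had all 6 PRC2-null samples above all 6 retaining samples, an arrangement found in 24.2% of all genes, and SNRPN and COPG2 had the reverse, found in 13.3%. These counts, shares and medians include genes that passed the filter only through PRC2-null samples. Those were 4 of the 32, DIO3 among them, and 3259 of the 19100.

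**Figure D1:**
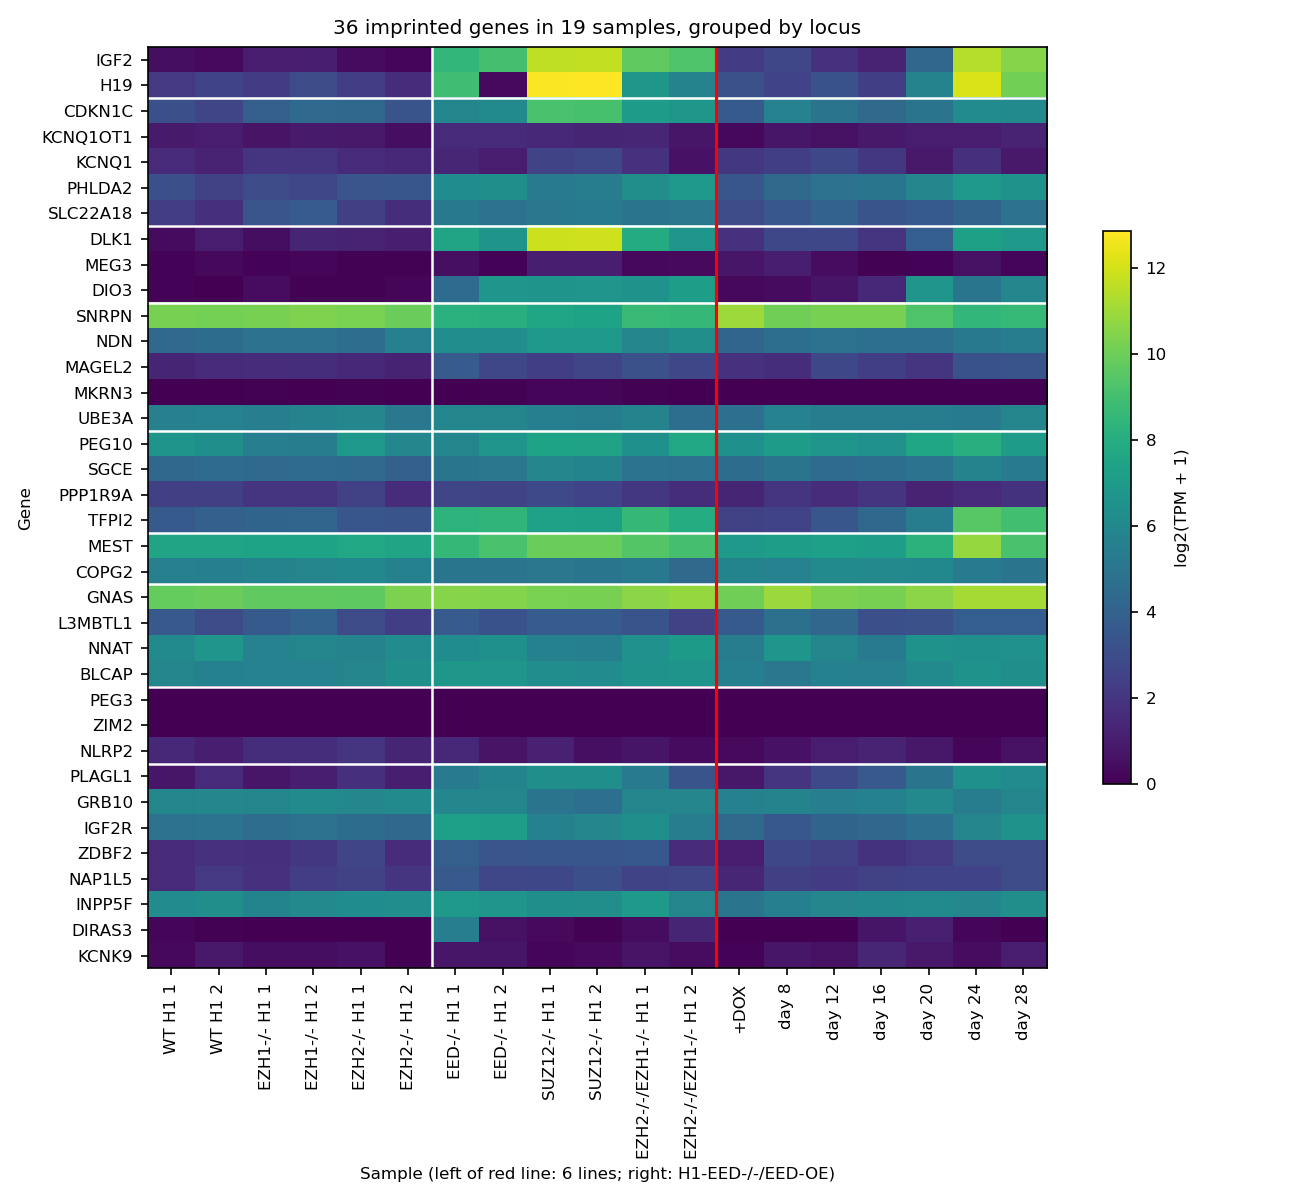
Level of each of the 36 imprinted genes (rows, grouped by locus and separated by white lines) in each of the 19 samples (columns), as log2(TPM + 1) in colour. Right of the white vertical line, the 6 PRC2-null samples show IGF2, DLK1, DIO3 and TFPI2 bright where the 6 retaining samples are dark, and SNRPN dimmer, while PEG3 and ZIM2 are at 0 throughout.

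By line, 11 imprinted genes rose and 1 fell in EED-/- H1 relative to WT H1, against 16.2% and 6.09% of all genes. In SUZ12-/- H1, 11 rose and 1 fell, against 14.5% and 5.21%. In EZH2-/-/EZH1-/- H1, 10 rose and 0 fell, against 11.6% and 5.66%, with SNRPN lower by a log2 value that stayed under the 3-fold limit. In EZH1-/- H1, 0 of the 32 genes were called by limma, with 5 at an unadjusted p under 0.05, as were 16.0% of all genes, and 0.0576% and 0.0419% of all genes rose and fell. In EZH2-/- H1, 0 of the 32 were called, with 2 at an unadjusted p under 0.05, as were 5.81% of all genes, and 0 genes were called in all. These 5 comparisons share the 2 WT H1 samples. Their medians over the 32 genes were 1.14, 1.03, 0.83, 0.09 and 0.01 on the log2 scale, beside 0.36, 0.22, 0.19, 0.02 and -0.06 over all genes. Scaling the samples by median ratios moved the median of all genes by -0.295 in EED-/- H1, -0.139 in SUZ12-/- H1, -0.115 in EZH2-/-/EZH1-/- H1 and -0.213 in the PRC2-null lines together.

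IGF2, the fetal growth factor insulin-like growth factor 2 (chr11:2129112-2158391, GRCh38, minus strand), was the imprinted gene with the largest fitted rise. It stood at 0.38 and 0.27 TPM in WT H1, at 1.07 and 1.08 in EZH1-/- H1 and at 0.32 and 0.18 in EZH2-/- H1. It stood at 368.1 and 539.8 TPM in EED-/- H1, at 847.8 and 632.6 in EZH2-/-/EZH1-/- H1 and at 3207 and 3285 in SUZ12-/- H1. The PRC2-null samples did not overlap with the rest, and SUZ12-/- H1 was the highest line. Relative to WT H1 the log2 fold change was 8.40 ± 0.23 (SE; adjusted p = 6.25e-09, limma) in EED-/- H1, 9.11 ± 0.23 (adjusted p = 4.98e-09) in EZH2-/-/EZH1-/- H1 and 11.26 ± 0.23 (adjusted p = 5.25e-10) in SUZ12-/- H1. IGF2-AS, which overlaps IGF2 on the other strand, was also called higher in each of these 3 lines, at 2.10, 2.70 and 4.39. It was at 0 to 0.08 TPM in the retaining samples and passed the filter on low values only through the PRC2-null samples. The sources do not state whether counting used strand, so reads of such antisense pairs cannot be told apart.

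H19, the noncoding RNA that lies beside IGF2 (chr11:1995166-2004552, minus strand) and is known for being expressed from the maternal copy where IGF2 is expressed from the paternal one, did not follow IGF2 in every sample. It was at 3.33 and 5.01 TPM in WT H1, 3.94 and 7.0 in EZH1-/- H1 and 3.96 and 2.14 in EZH2-/- H1. It was at 7135 and 7400 TPM in SUZ12-/- H1 and at 112.0 and 53.0 in EZH2-/-/EZH1-/- H1, but at 487.6 in one EED-/- sample and at 0.27 in the other. The second EED-/- sample thus had the lowest H19 value of the 12 samples while its IGF2 was at 539.8 TPM, and the groups overlapped. Between the 2 EED-/- samples the H19 difference was 8.59 on the log2(TPM + 1) scale, and 1 of the 19100 genes tested, H19 itself, was that far apart. The titles of these 2 samples carry different clone names. The ratio of IGF2 to H19 TPM was 0.755 in the first and 2000.0 in the second, 0.449 and 0.444 in the SUZ12-/- samples, 7.57 and 11.9 in the double knockout samples and 0.0539 to 0.272 in the 6 retaining samples.

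With that spread in the fit, the SE of H19 was 1.91 in every comparison of 2 lines. The change in EED-/- H1 was 2.29 (adjusted p = 0.340, limma), that in EZH2-/-/EZH1-/- H1 was 3.94 (adjusted p = 0.118), and that in SUZ12-/- H1 was 10.48 (adjusted p = 0.00113), which passed. The SUZ12-/- call was lost without WT H1 replicate 1 (10.24), without SUZ12-/- replicate 1 (10.50) or 2 (10.45), and without the filter on low values. For the PRC2-null lines together the change was 5.59 ± 1.10 (adjusted p = 0.000996), 7.02 without the EED-/- sample that lacked H19 and 4.16 without the other, both still called, and that call was lost against WT H1 alone (5.57) and without the filter. The 250 bases upstream of the H19 start (RefSeq, GRCh38.p14, chr11:2001267-2001516, minus strand) are shown because H19 separates the 2 EED-/- samples. They hold no TGCCGC, the hexamer recognised by the imprint-protecting factor ZFP57, on either strand.
H19: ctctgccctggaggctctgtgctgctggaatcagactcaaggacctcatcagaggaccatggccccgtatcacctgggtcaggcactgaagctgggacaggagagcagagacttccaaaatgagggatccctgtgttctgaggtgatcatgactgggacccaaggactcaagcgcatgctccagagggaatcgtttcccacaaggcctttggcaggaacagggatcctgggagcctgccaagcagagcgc

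**Figure D2:**
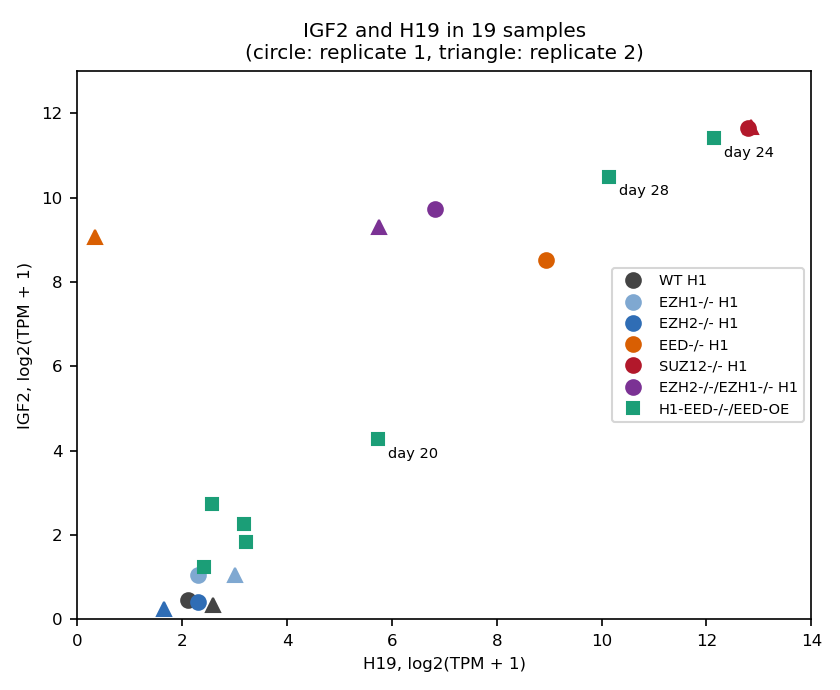
IGF2 (vertical axis) against H19 (horizontal axis), both as log2(TPM + 1), in all 19 samples, coloured by line. The EED-/- sample with 0.27 TPM of H19 and 539.8 TPM of IGF2 sits alone at the upper left, apart from the other EED-/- sample and the SUZ12-/- pair, and the days 24 and 28 lie at the upper right.

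In the neighbouring KCNQ1OT1 domain of 11p15, 3 of 5 genes rose in the PRC2-null lines together, where 13.5% of all genes did. CDKN1C, which encodes the cyclin-dependent kinase inhibitor p57 (chr11:2883213-2885775), was at 7.93 and 5.42 TPM in WT H1, 13.83 and 19.84 in EZH1-/- H1 and 18.29 and 9.11 in EZH2-/- H1. In EED-/- H1 it was at 59.4 and 69.5, in EZH2-/-/EZH1-/- H1 at 134.2 and 111.7, and in SUZ12-/- H1 at 577.3 and 556.3 TPM. The groups did not overlap, and SUZ12-/- H1 again stood highest. The log2 fold changes from WT H1 were 3.11 ± 0.31, 4.03 ± 0.31 and 6.23 ± 0.31 (adjusted p = 1.5e-05, 4.17e-06 and 3.04e-07, limma).

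PHLDA2, a pleckstrin homology protein that restrains placental growth, had a different order of lines. It was at 7.68 and 4.80 TPM in WT H1, 6.76 and 5.76 in EZH1-/- H1 and 9.48 and 9.73 in EZH2-/- H1. It was at 74.0 and 84.5 in EED-/- H1, 80.6 and 113.2 in EZH2-/-/EZH1-/- H1 and 38.0 and 41.1 in SUZ12-/- H1, so that SUZ12-/- H1 was the lowest of the PRC2-null lines but still above every retaining sample. Its log2 fold changes were 3.50 ± 0.25, 3.77 ± 0.25 and 2.51 ± 0.25 (adjusted p = 2.09e-06, 1.95e-06 and 1.94e-05, limma). SLC22A18, a membrane transporter gene, was at 4.03 and 2.31 TPM in WT H1, 9.54 and 12.22 in EZH1-/- H1, 4.48 and 2.23 in EZH2-/- H1, 35.9 and 27.2 in EED-/- H1, 29.6 and 33.5 in EZH2-/-/EZH1-/- H1 and 34.9 and 37.4 in SUZ12-/- H1. The PRC2-null samples lay between 27.2 and 37.4, above every retaining one, with log2 fold changes of 2.98, 2.99 and 3.19 (SE 0.32 each). In EZH1-/- H1, SLC22A18 had the smallest adjusted p of the imprinted genes, 0.0507 (log2 fold change 1.53 ± 0.32, limma), and did not pass.

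KCNQ1OT1, the long noncoding RNA whose transcription from the paternal copy is known to silence its neighbours, was at 0.40 to 0.99 TPM in the retaining samples and at 0.74 to 2.03 in the PRC2-null ones. It overlaps KCNQ1, a potassium channel gene, on the other strand. Neither was called in any comparison, with values of 0.53 ± 0.16 (adjusted p = 0.0123, limma) and 0.07 ± 0.21 (adjusted p = 0.791) in the PRC2-null lines together.

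At 14q32 the 2 genes known to be expressed paternally rose from near 0 while the noncoding RNA between them stayed near it. DLK1, a membrane-bound Notch-family ligand of fetal tissues (chr14:100725705-100738224), was at 0.30 and 0.96 TPM in WT H1, 0.37 and 1.54 in EZH1-/- H1 and 1.37 and 1.15 in EZH2-/- H1. It was at 179.9 and 99.0 in EED-/- H1, 241.5 and 107.4 in EZH2-/-/EZH1-/- H1 and 3771 and 3834 in SUZ12-/- H1. The PRC2-null samples were all above the rest, with SUZ12-/- H1 far above the other two. Fold changes from WT H1 were 6.40 ± 0.43, 6.67 ± 0.43 and 11.22 ± 0.43 on the log2 scale (adjusted p = 1.24e-06, 1.51e-06 and 6.03e-08, limma).

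DIO3, the deiodinase that inactivates thyroid hormone (chr14:101560139-101563452), was at 0.10 and 0 TPM in WT H1, 0.35 and 0.07 in EZH1-/- H1, 0.07 and 0.15 in EZH2-/- H1, 21.5 and 107.9 in EED-/- H1, 96.0 and 139.2 in EZH2-/-/EZH1-/- H1 and 98.8 and 104.2 in SUZ12-/- H1. The lines did not overlap between the classes, though the EED-/- samples were well apart from each other. The log2 fold changes were 5.56, 6.80 and 6.61 (SE 0.56 each), all called. DIO3 would not have passed the filter on low values without its PRC2-null samples, nor would KCNQ1OT1, MEG3 and DIRAS3 among the 32 genes or 3259 of the 19100 in all. DIO3OS, antisense to DIO3, was at 6.16 to 46.83 TPM in the PRC2-null samples and at 0 to 0.09 in the others.

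MEG3, the maternally expressed noncoding RNA of the cluster, was at 0.06 to 0.22 TPM in the 6 retaining samples, at 0.46 and 0.11 in EED-/- H1, 0.21 and 0.26 in EZH2-/-/EZH1-/- H1 and 1.10 and 1.12 in SUZ12-/- H1. It was tested only because the SUZ12-/- samples passed the filter on low values, and it was not called there (0.88 ± 0.22, adjusted p = 0.00716, limma, under 3-fold). In the SUZ12-/- samples DLK1 was thus at 3430 and 3420 times the TPM of MEG3. RTL1, a further paternally expressed gene of 14q32, was at 8.84 and 9.74 TPM in SUZ12-/- H1 and at most 0.85 in the other 17 samples. A RefSeq window upstream of MEG3 (chr14:100825858-100826107, plus strand) is shown for contrast with its neighbours and holds 1 copy of the hexamer, read on the other strand and given in capitals.
MEG3: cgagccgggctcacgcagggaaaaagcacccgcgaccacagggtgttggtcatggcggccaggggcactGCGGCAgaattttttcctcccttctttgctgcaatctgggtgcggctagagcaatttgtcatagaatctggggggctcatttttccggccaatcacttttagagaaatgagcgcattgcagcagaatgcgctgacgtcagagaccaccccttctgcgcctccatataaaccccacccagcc

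On 15q11 the genes known to be paternally expressed moved in opposite directions. SNRPN, a spliceosomal protein gene (chr15:24823637-24978723), was at 1204 and 1168 TPM in WT H1, 1204 and 1307 in EZH1-/- H1 and 1236 and 968 in EZH2-/- H1. It was at 293.6 and 267.0 in EED-/- H1, 415.8 and 380.2 in EZH2-/-/EZH1-/- H1 and 184.3 and 172.1 in SUZ12-/- H1. Every PRC2-null sample lay below every retaining one. Its log2 fold change was -2.08 ± 0.16 in EED-/- H1 (adjusted p = 3.11e-06, limma), -2.73 ± 0.16 in SUZ12-/- H1 (adjusted p = 7.02e-07) and -1.57 ± 0.16 in EZH2-/-/EZH1-/- H1 (adjusted p = 2.84e-05), where it was just under the 3-fold limit. SNHG14, the noncoding transcript that starts at the same imprinting centre and overlaps SNRPN, also fell in these lines, by 1.62, 2.09 and 1.79.

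NDN, which encodes the growth-restraining protein necdin (chr15:23685400-23687305), was at 20.4 and 22.6 TPM in WT H1, 27.7 and 26.6 in EZH1-/- H1 and 22.9 and 47.6 in EZH2-/- H1. It was at 76.9 and 78.0 in EED-/- H1, 56.2 and 81.2 in EZH2-/-/EZH1-/- H1 and 112.9 and 113.3 in SUZ12-/- H1, above every retaining sample. The log2 fold changes were 1.80 ± 0.30, 1.61 ± 0.30 and 2.34 ± 0.30 (adjusted p = 0.000512, 0.0014 and 9.58e-05, limma). MAGEL2, of the same MAGE family as NDN, was at 1.49 and 1.92 TPM in WT H1, 2.09 and 2.17 in EZH1-/- H1, 1.74 and 1.34 in EZH2-/- H1, 11.75 and 5.57 in EED-/- H1, 8.11 and 5.78 in EZH2-/-/EZH1-/- H1 and 4.26 and 5.42 in SUZ12-/- H1, without overlap. It was called in EED-/- H1 (1.76 ± 0.34, adjusted p = 0.00133, limma), and its values in the double knockout (1.54, adjusted p = 0.00377) and SUZ12-/- H1 (1.11, adjusted p = 0.0195) did not pass. The lines themselves did not differ in MAGEL2 past the limits, at 0.22 ± 0.34 for EED-/- H1 relative to the double knockout and 0.66 ± 0.34 relative to SUZ12-/- H1.

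The smaller changes at 15q11 were the ones most sensitive to the fit. NDN lost its call in EED-/- H1 under median-ratio scaling (1.42) and in the double knockout under that scaling (1.46), without WT H1 replicate 1 (1.54) or 2 (1.68) without the second double knockout sample (1.35), without the low-value filter and in a fit of the 4 samples, and in the PRC2-null lines together under scaling (1.35) and without EZH2-/- replicate 1 (1.44) or EZH2-/-/EZH1-/- replicate 2 (1.52). MAGEL2 in EED-/- H1 lost its call under scaling (1.44), without WT H1 replicate 1 (1.65), without EED-/- replicate 1 (1.28) and in a fit of the 4 samples. UBE3A, the ubiquitin ligase gene expressed from both copies outside neurons, was at 24.3 to 60.7 TPM over the 19 samples and was not called (-0.09 ± 0.20 in the PRC2-null lines together). MKRN3 was at 0 to 0.19 TPM and did not reach the filter. A window upstream of SNRPN (chr15:24954737-24954986, plus strand) and that of NDN (chr15:23687306-23687555, minus strand) are shown because the 2 genes moved oppositely. Of 4 SNRPN windows 2 hold the hexamer, and the one shown has it once on each strand, while NDN has it once, all in capitals.
SNRPN: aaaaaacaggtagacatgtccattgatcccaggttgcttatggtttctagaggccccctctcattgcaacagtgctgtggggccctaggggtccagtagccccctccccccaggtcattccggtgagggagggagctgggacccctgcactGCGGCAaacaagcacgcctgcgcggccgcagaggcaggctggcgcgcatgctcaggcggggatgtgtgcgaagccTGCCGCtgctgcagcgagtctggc
NDN: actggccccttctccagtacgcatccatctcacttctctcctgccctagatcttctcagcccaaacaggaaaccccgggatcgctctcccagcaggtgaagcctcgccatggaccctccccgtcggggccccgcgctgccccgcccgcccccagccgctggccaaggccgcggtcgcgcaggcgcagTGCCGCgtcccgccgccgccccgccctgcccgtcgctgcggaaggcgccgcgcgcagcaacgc

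Upstream windows of 250 bases were available in RefSeq for 23 of the 36 imprinted genes, as 53 windows, since several genes have more than 1 start. No window was used for IGF2, CDKN1C, KCNQ1OT1, KCNQ1, PHLDA2, SLC22A18, DLK1, PEG10, SGCE, NNAT, PEG3, ZIM2 and KCNK9. TGCCGC occurred on either strand in 15 of the 53 windows (28.3%) and in 12.7% of the 35116 windows of all genes. The median GC content was 63.6% in the former and 58% in the latter. The median ratio of observed to expected CpG (a C followed by a G) was 0.69 and 0.56. The hexamer itself holds a CpG, and the part of base composition in its share was not tested. Windows of one gene can overlap and then count the same copy again, as for the 3 of MEG3. By gene, 11 of the 23 had the hexamer in at least 1 window, as did 15.02% of the 27305 genes in the table. These shares are not like for like. The imprinted genes had more windows per gene, with 53 for 23 genes against 35116 for 27305, and so more chances to hold it. Whether the hexamer is enriched at imprinted genes was not tested.

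**Figure D3:**
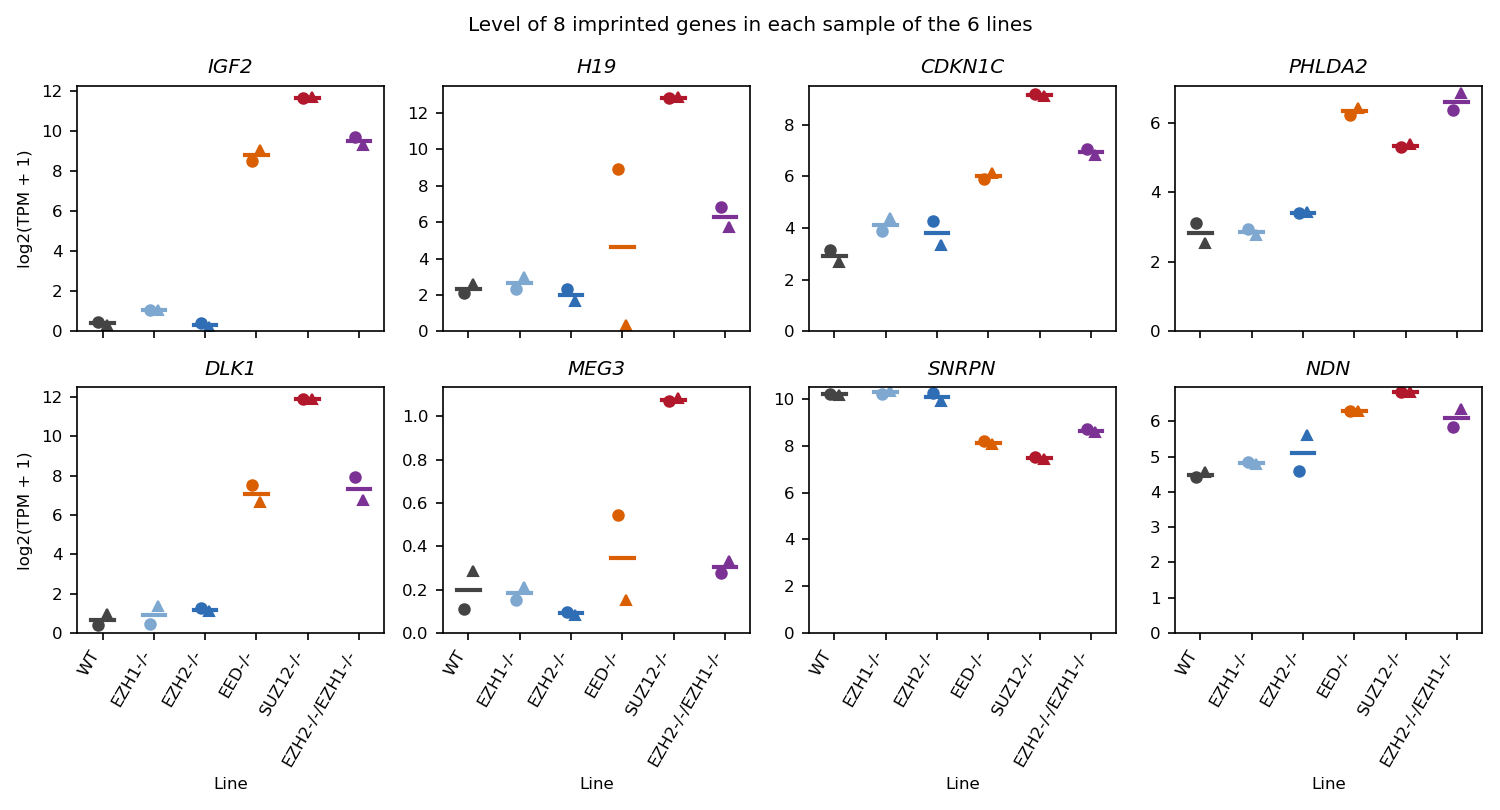
Level of 8 imprinted genes as log2(TPM + 1) in each of the 2 samples (circle, replicate 1; triangle, replicate 2) of the 6 lines, with a bar at the mean of the pair. IGF2, CDKN1C and DLK1 are highest in SUZ12-/-, PHLDA2 is lowest there among the PRC2-null lines, H19 is split between the EED-/- samples, and SNRPN is lower where NDN is higher.

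On 7q21, 1 of 4 genes rose in the PRC2-null lines together, where 13.5% of all genes did. TFPI2, a secreted serine protease inhibitor abundant in placenta (chr7:93885396-93890753), was at 11.3 and 14.5 TPM in WT H1, 16.7 and 17.1 in EZH1-/- H1 and 10.03 and 9.12 in EZH2-/- H1. It was at 321.0 and 343.8 in EED-/- H1, 376.1 and 245.2 in EZH2-/-/EZH1-/- H1 and 162.0 and 159.9 in SUZ12-/- H1, where, as for PHLDA2, the SUZ12-/- values were the lowest of the PRC2-null samples. The trophoblast marker sum was 301.6 and 433.5 TPM in EED-/- H1, 247.5 and 219.7 in the double knockout and 248.1 and 266.0 in SUZ12-/- H1. KRT7 alone was at 255.5 and 383.0 TPM in EED-/- H1, 135.7 and 162.1 in the double knockout and 48.9 and 55.0 in SUZ12-/- H1. The other trophoblast markers had no higher mean in EED-/- H1 than in the other PRC2-null lines. The part of this sum in the TFPI2 and PHLDA2 values was not tested. The log2 fold changes were 4.59 ± 0.22, 4.46 ± 0.22 and 3.55 ± 0.22 (adjusted p = 1.75e-07, 2.61e-07 and 8.2e-07, limma). PEG10, a retrotransposon-derived gene needed for placenta, and SGCE, the sarcoglycan gene that shares its promoter region in the opposite direction, were not called. SGCE was at 14.6 to 21.8 TPM in the retaining samples and 27.7 to 61.0 in the PRC2-null ones, without overlap (0.92 ± 0.12, adjusted p = 5.15e-05, limma, under 3-fold). PEG10 was at 41.9 to 115.4 and 59.1 to 198.3 TPM, with overlap, and PPP1R9A was at 1.35 to 6.07 TPM over all samples.

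MEST on 7q32, an enzyme of the alpha/beta hydrolase family known from embryonic mesoderm (chr7:130486171-130506465), was at 181.7 and 181.4 TPM in WT H1, 173.3 and 176.8 in EZH1-/- H1 and 198.9 and 180.1 in EZH2-/- H1. It was at 375.4 and 579.2 in EED-/- H1, 675.1 and 538.5 in EZH2-/-/EZH1-/- H1 and 988.9 and 995.2 in SUZ12-/- H1, all above the retaining samples. It rose in SUZ12-/- H1 (2.44 ± 0.20, adjusted p = 5.64e-06, limma) and in EZH2-/-/EZH1-/- H1 (1.73 ± 0.20, adjusted p = 7.64e-05), while the value in EED-/- H1 (1.36 ± 0.20, adjusted p = 0.000288) was under 3-fold. The double knockout call was lost under median-ratio scaling (1.57) and without EZH2-/-/EZH1-/- replicate 1 (1.56), and that of the PRC2-null lines together under scaling (1.57). COPG2, a coatomer subunit gene that overlaps the end of MEST on the other strand, had lower values in every PRC2-null sample (20.8 to 35.5 TPM) than in any retaining one (46.3 to 62.3), at -0.79 ± 0.14 (adjusted p = 0.00046, limma), under 3-fold.

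Of the single loci, PLAGL1 and IGF2R rose. PLAGL1, a zinc finger transcription factor gene (chr6:143940300-144064599), was at 0.70 and 2.03 TPM in WT H1, 0.69 and 1.13 in EZH1-/- H1, 2.43 and 1.09 in EZH2-/- H1, 40.2 and 54.9 in EED-/- H1, 39.2 and 9.03 in EZH2-/-/EZH1-/- H1 and 82.7 and 84.8 in SUZ12-/- H1. Its PRC2-null samples did not overlap with the others, but the double knockout samples differed from each other. The log2 fold changes were 4.4, 3.15 and 5.22 (SE 0.55 each; adjusted p = 8.18e-05, 0.00102 and 2.7e-05, limma), and the second, that of the double knockout, lost its call without WT H1 replicate 1 (2.73), without the low-value filter and in a fit of those 4 samples alone.

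IGF2R, the receptor that carries IGF2 to the lysosome for degradation (chr6:159969082-160113507), was at 26.7 and 28.7 TPM in WT H1, 22.8 and 26.6 in EZH1-/- H1 and 22.6 and 18.3 in EZH2-/- H1. It was at 152.8 and 141.8 in EED-/- H1, 84.7 and 41.7 in EZH2-/-/EZH1-/- H1 and 49.4 and 59.9 in SUZ12-/- H1, so that EED-/- H1, the line with the least IGF2 of the PRC2-null lines by its mean, had the most IGF2R. It was called in EED-/- H1 (2.37 ± 0.29, adjusted p = 6.66e-05, limma) and not in the other 2 lines (1.08 and 0.95, adjusted p = 0.0115 and 0.0196). Between lines, EED-/- H1 exceeded the double knockout by 1.29 ± 0.29 (adjusted p = 0.0651) and SUZ12-/- H1 by 1.42 ± 0.29 (adjusted p = 0.00609), the latter under 3-fold. Its call in the PRC2-null lines together (1.66 ± 0.17) was lost against WT H1 alone (1.46), under scaling (1.40) and without EZH2-/-/EZH1-/- replicate 1 (1.49). Of 8 further genes of IGF2 binding and response, IGF1R, the signalling receptor, was the 1 called, in EED-/- H1 (2.27 ± 0.30, adjusted p = 0.000113, limma). In that line 16.2% of all genes rose relative to WT H1.

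The other single loci did not pass. GRB10, an adaptor that dampens insulin and IGF receptor signalling, was at 58.2 and 61.0 TPM in WT H1 and at 29.9 and 25.1 in SUZ12-/- H1, below every other sample of the 6 lines, at -1.09 ± 0.18 (adjusted p = 0.000507, limma), under 3-fold. ZDBF2 was at 1.90 to 5.5 TPM in the retaining samples and 1.98 to 14.02 in the PRC2-null ones. NAP1L5 was at 2.03 to 4.79 and 5.32 to 10.98, without overlap (0.88 ± 0.21, adjusted p = 0.00344). DIRAS3, a RAS-related growth suppressor, was at 44.19 TPM in the first EED-/- sample and at 1.51 or less in the other 18 samples, so that the EED-/- pair that was split for H19 was split here too, in the same direction. INPP5F was at 30.2 to 121.0 TPM.

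On 20q, 0 of 4 genes were called, where 13.5% of all genes rose and 5.09% fell in the PRC2-null lines together. GNAS, which encodes the stimulatory G protein alpha subunit and further products from other promoters, was at 815.2 to 1292 TPM in the retaining samples and 1208 to 1825 in the PRC2-null ones (0.63 ± 0.12, adjusted p = 0.000618, limma). BLCAP had 0.66 ± 0.11 (adjusted p = 0.000377). NNAT, which lies within BLCAP on the other strand, was at 39.7 to 127.8 TPM over the 19 samples, and L3MBTL1 at 4.31 to 25.6. On 19q13, PEG3 and ZIM2, which overlap each other, were listed at 0 in all 19 samples, NLRP2 was at 0.16 to 2.99 TPM and was not called, and KCNK9, on chromosome 8, was at 0 to 1.58 TPM and did not reach the filter.

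**Figure D4:**
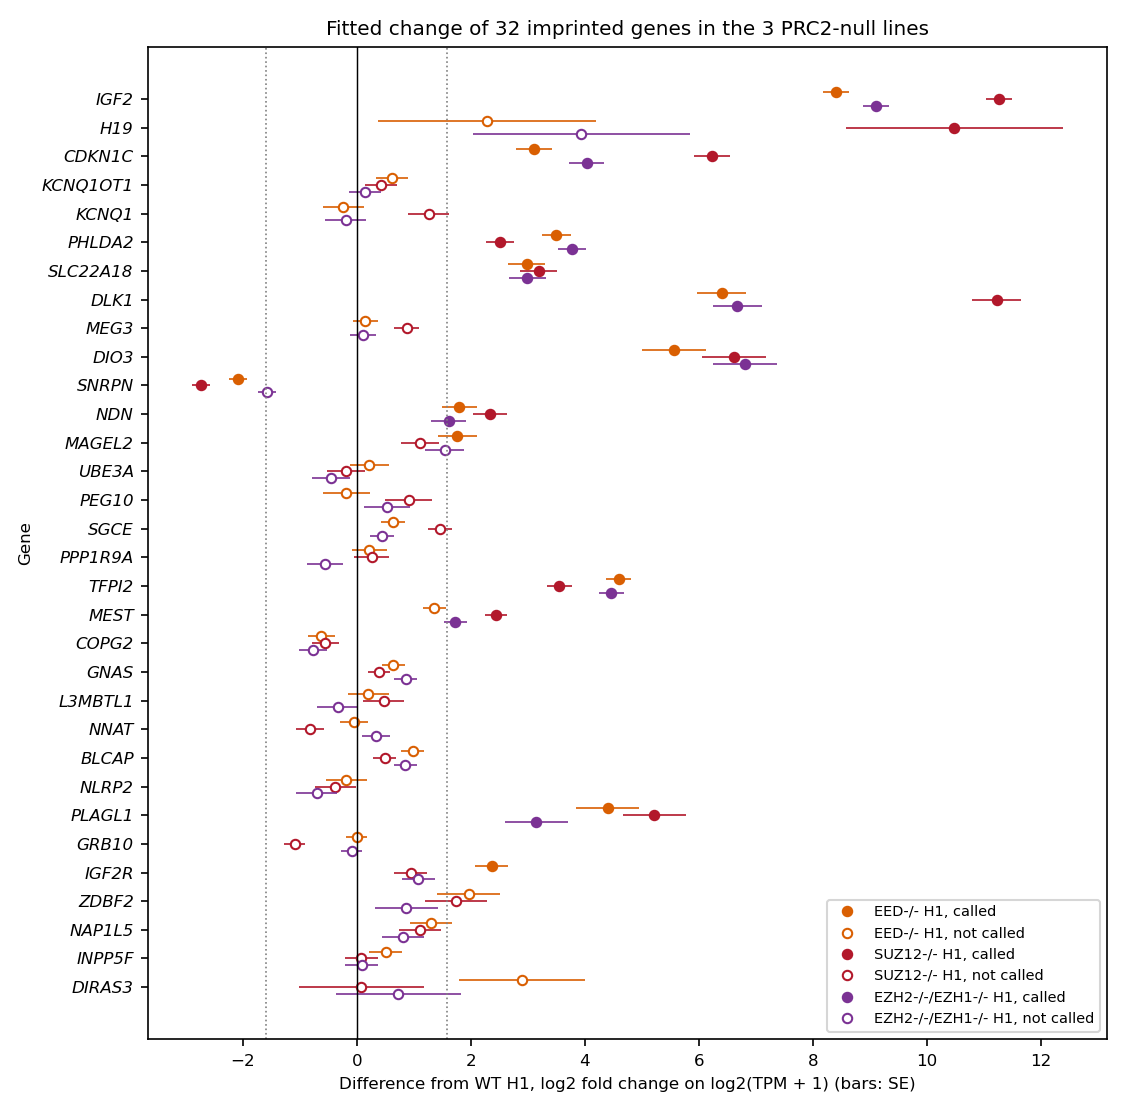
Fitted log2 fold change from WT H1 (horizontal axis, bars show the SE) of the 32 imprinted genes tested (vertical axis) in the 3 PRC2-null lines, with filled points for called genes and dotted lines at 3-fold. SNRPN is the only gene with a filled point left of 0, the H19 bars are the widest, and the SUZ12-/- points of IGF2, CDKN1C and DLK1 lie to the right of the other lines.

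Grouped by the copy from which the gene is known to be expressed, 6 of the 16 paternally expressed genes tested rose and 1 fell in the PRC2-null lines together, and 5 of the 10 maternally expressed genes rose and 0 fell, where 13.5% of all genes rose and 5.09% fell. The median log2 fold changes were 1.31 and 1.48. Both members of the IGF2/H19 pair rose, whereas at 14q32 the 2 paternally expressed genes rose and MEG3 was not called.

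The PRC2-null lines were then compared with each other. EED-/- H1 had 3 imprinted genes lower than SUZ12-/- H1 (IGF2, CDKN1C and DLK1) and 0 higher, against 3.54% and 2.58% of all genes. The differences were -2.86 ± 0.23 (adjusted p = 1.94e-05, limma), -3.12 ± 0.31 (adjusted p = 7.46e-05) and -4.82 ± 0.43 (adjusted p = 4.06e-05). Without EED-/- replicate 2 the count was 6. EZH2-/-/EZH1-/- H1 was lower than SUZ12-/- H1 in the same 3 genes, against 3.32% of all genes lower and 1.14% higher, at -2.15 ± 0.23, -2.20 ± 0.31 and -4.55 ± 0.43 (adjusted p = 0.000144, 0.00086 and 6.1e-05, limma). These 3 double knockout calls were all lost in a fit of the 4 samples alone, and that of CDKN1C also without SUZ12-/- replicate 1 (-2.17) or 2 (-2.23) and without the low-value filter. Both comparisons share the SUZ12-/- samples, in which the endoderm and yolk sac marker sum was also the highest. That sum was mostly AFP there, and SOX17, GATA4 and FOXA2 were lower there than in the other PRC2-null samples. EED-/- and EZH2-/-/EZH1-/- H1 differed in 0 imprinted genes by limma, with 7 at an unadjusted p under 0.05, as were 20.1% of all genes, against 0.0576% of all genes higher and 0.0314% lower. That count was 3 without EZH2-/-/EZH1-/- replicate 1, 1 without EED-/- replicate 1 and 2 without EED-/- replicate 2.

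H1-EED-/-/EED-OE allowed the imprinted genes to be followed as EED was withdrawn, with 1 sample a day and therefore no replicate check. In DOX, 0 of the 25 imprinted genes that could be compared were 3-fold from the WT H1 mean on log2(TPM + 1). Of all genes, 0.538% were higher and 2.59% lower. IGF2 was not among the 25, since both WT H1 samples were under a TPM of 1. It was at 3.74 TPM in DOX against 0.38 and 0.27 in WT H1, a log2 difference of 1.84. No other imprinted gene left out was past 3-fold. Single days were also compared on log2(TPM + 1), which lessens fold changes at low TPM. Of 30 imprinted genes followed, 2 were more than 3-fold above the DOX sample at day 8, 1 at day 12 and 2 at day 16, where 2.93%, 3.08% and 4.13% of all genes were, and 0 were more than 3-fold below it, where 0.603%, 0.4% and 0.939% were. At days 20, 24 and 28 the numbers were 7, 11 and 13, beside 9.62%, 13.9% and 18.8% of all genes. SNRPN was the 1 imprinted gene more than 3-fold lower on those days, as were 2.91%, 5.09% and 6.11% of all genes.

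IGF2 was at 3.74 TPM in DOX and at 5.64, 2.56, 1.36, 18.20, 2718 and 1446 TPM on days 8, 12, 16, 20, 24 and 28. H19 was at 8.07 TPM in DOX and at 4.90, 8.29, 4.31, 52.2, 4498 and 1121 on the same days. Neither exceeded 8.29 TPM to day 16, and both were above DOX from day 20 and highest at day 24. The ratio of IGF2 to H19 stayed between 0.309 and 1.29 on all 6 days, and no sample of this line had the IGF2-high, H19-absent pattern of the second EED-/- sample. DLK1 went from 2.53 TPM in DOX through 5.81, 5.87, 2.88 and 13.40 to 157.1 at day 24 and 119.5 at day 28. MEG3 was at 0.71 TPM in DOX and between 0.07 and 1.09 afterwards. DIO3 was at 0.22 TPM in DOX, at 0.30, 0.67 and 1.75 to day 16, and then at 102.9, 31.3 and 60.9.

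On log2(TPM + 1), PLAGL1 was the first to pass 3-fold and stay past it. It was at 0.77 TPM in DOX and at 2.92, 6.16, 10.95, 29.98, 86.2 and 73.6 TPM on the 6 days, that is from day 12 on. TFPI2, at 4.72 TPM in DOX, was at 4.95, 10.03, 18.77, 41.56, 732.5 and 496.1, past 3-fold from day 16 on. On the same scale, IGF2, H19, PHLDA2, DLK1 and DIO3 were past it from day 20, CDKN1C, MEST and ZDBF2 from day 24, and SLC22A18, IGF2R and NAP1L5 at day 28. By plain TPM some were past 3-fold earlier: PLAGL1 by day 8, PHLDA2 and DIO3 by day 16, and ZDBF2 and NAP1L5 by day 20. The order thus depends in part on the added 1. PHLDA2 was at 10.02 TPM in DOX and at 20.8, 28.1, 30.9, 61.7, 112.7 and 93.0, and IGF2R was at 20.7 in DOX and at 10.8, 16.9, 17.8, 24.5, 57.4 and 97.1. PHLDA2 was above its DOX value on every day, whereas IGF2R was below it to day 16. The trophoblast marker sum, 14.27 TPM in DOX, was at 51.1, 27.7, 14.29, 595.1, 218.1 and 126.8 on those days. At day 20 most of it was HAND1, also a mesoderm marker, at 469.6 TPM. KRT7 was then at 6.44 TPM against 13.75 in DOX, while GATA3, TFAP2A, CDX2 and CGA were above DOX. The part of this sum in the PHLDA2 and TFPI2 values was not tested.

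CDKN1C did not follow a single course. It was at 11.65 TPM in DOX, at 51.5 on day 8, at 30.0, 20.9 and 29.9 on days 12, 16 and 20, and at 72.2 and 70.0 on days 24 and 28. MEST was at 123.3 TPM in DOX, at 145.6, 152.0 and 140.6 to day 16, and then at 302.2, 1827 and 565.0. NDN, at 17.4 TPM in DOX, was at 23.8, 27.1, 25.1, 25.2, 35.0 and 42.2 on the 6 days. MAGEL2 was at 2.55 TPM in DOX and at 2.26, 5.89, 4.26, 2.86, 8.56 and 9.02. SLC22A18 was at 7.03 TPM in DOX and at 10.2, 15.2, 9.27, 11.52, 15.9 and 26.6. SNRPN was at 2001 TPM in DOX, higher than the 1168 and 1204 of WT H1, at 1068, 1189 and 1175 on days 8, 12 and 16, and at 635.8, 365.0 and 396.4 on days 20, 24 and 28. The 3 lowest SNRPN values were those of days 20 to 28, on which IGF2, H19 and DLK1 were more than 3-fold above DOX.

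**Figure D5:**
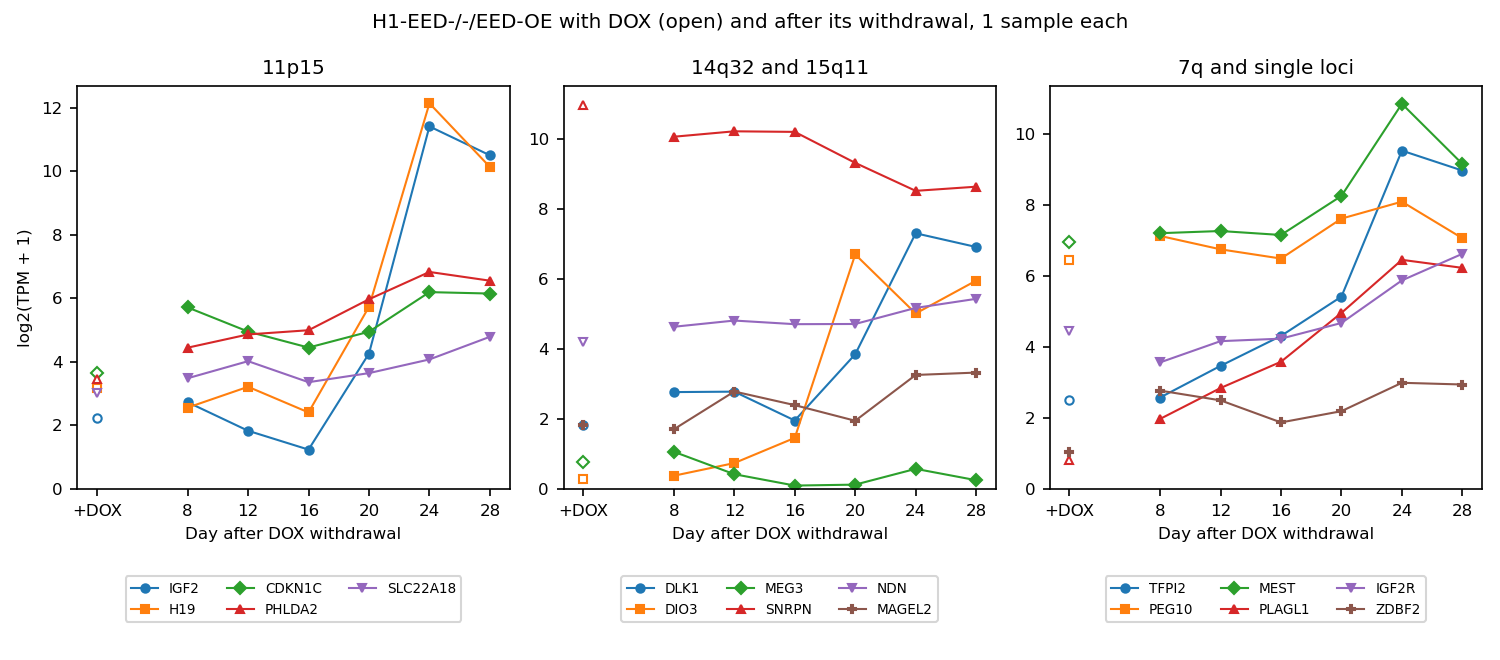
Level of 17 imprinted genes as log2(TPM + 1) in H1-EED-/-/EED-OE with DOX (open symbols) and on days 8 to 28 after its withdrawal (filled symbols, 1 sample each), in 3 panels by locus. PLAGL1 and TFPI2 climb from the first days, IGF2, H19 and DLK1 climb between days 16 and 24, SNRPN declines from day 16, and MEG3 stays near 0.

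Cell identity moved over the same days. The pluripotency marker sum was 4795 TPM in DOX, 5027 to 6019 to day 16, 2611 at day 20, and 455.9 and 436.4 at days 24 and 28. The mesoderm, mesenchyme and vessel sum was 106.3 in DOX, 757.3 at day 20 and 6009 and 4491 at days 24 and 28, and the endoderm and yolk sac sum was 5.05, 474.6, 735.3 and 1607. The neural ectoderm sum was 78.3 in DOX and 133.4 to 323.6 afterwards, highest at day 28. The part of these shifts in the imprinted gene values was not tested.

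In a linear trend over the 6 withdrawal days, fitted by limma over 17099 genes of which 30 were imprinted genes, 4 imprinted genes rose and 0 fell, where 1.36% and 0.667% of all genes did. PLAGL1 changed by 4.78 ± 0.48 on the log2 scale from day 8 to day 28 (adjusted p = 0.00783), TFPI2 by 7.31 ± 0.96 (adjusted p = 0.0088), IGF2R by 2.98 ± 0.40 (adjusted p = 0.0088) and PHLDA2 by 2.49 ± 0.38 (adjusted p = 0.0099). IGF2 (10.08 ± 2.40, adjusted p = 0.0308), H19 (9.71 ± 2.05, adjusted p = 0.0227) and SNRPN (-1.87 ± 0.39, adjusted p = 0.0213) did not pass. With 1 sample a day, the SE and p-value of the trend measure departure from a straight line and not spread between samples. A gene that changes in a late step, as IGF2 and H19 did, can miss the limits by the shape of its course. The calls were close to the limit: the count was 0 without day 8, 12, 24 or 28, 1 without day 16, and 0 under scaling or without the low-value filter.

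Factors known to guard imprints were measured as well. Of 14 imprint regulators tested, 0 rose and 3 fell in the PRC2-null lines together: DNMT3B, the de novo DNA methyltransferase of hESCs (-5.36 ± 0.26), HELLS, a chromatin remodeller (-2.29 ± 0.19), and UHRF1, which brings DNMT1 to replicated DNA (-2.11 ± 0.23), where 13.5% of all genes rose and 5.09% fell. In EED-/- H1, 5 fell, with DNMT1 (-1.61) and the ZFP57 partner TRIM28 (-1.87) in addition, where 6.09% of all genes fell. The regulators had a median of -0.52 and all genes one of 0.29. Of 31 other imprinted genes tested, 5 rose and 0 fell in the PRC2-null lines together, again beside 13.5% and 5.09% of all genes, led by DLX5 (4.35 ± 0.20), a homeobox gene, SLC22A3 (3.54 ± 0.31), an organic cation transporter gene near IGF2R, and CPA4 (3.27 ± 0.17), a carboxypeptidase gene of the MEST region. DLX5, CPA4, DDC (2.49 ± 0.19, also called) and IGF2-AS were among 12 of these 31 that would not have passed the filter on low values without the PRC2-null samples. The count of 5 and the median of the 31 thus include genes kept only through the lines in which they are high. That median was 0.67, against 0.90 for the 32 imprinted genes described above. The 32 likewise include 4 genes kept only through PRC2-null samples (KCNQ1OT1, MEG3, DIO3 and DIRAS3).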

How the data were processed

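Total RNA of 19 H1 samples had been sequenced. The authors mapped reads to human transcripts with Bowtie2 and RSEM and deposited 1 TPM value per gene and sample, as the labels and the study's methods state. GRCh38, hg38 and hg19 are all named in the submitters' processing notes, and coordinates here are those of GENCODE release 44 (GRCh38). TPM sums to a fixed total, so the depth behind each value is unknown, no counting interval could be given, and the study's count test could not be run. Samples were grouped by genotype, treatment and day. The imprinted genes and the other lists were chosen with earlier results of these data known, and all 36 are accounted for: values in every sample are given for those called in at least 1 comparison.

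TPM values as deposited were transformed to log2(TPM + 1), so fold changes of genes at low levels are understated. Genes were kept if 2 or more of the 12 line samples had a TPM of 1 or higher, and limma 3.58.1 in R 4.3.3 (lmFit, contrasts.fit, eBayes with trend and robust) was fitted with 1 mean per line. P-values were adjusted by Benjamini-Hochberg over all genes kept, and calls needed an adjusted p of at most 1% and 3-fold, the study's limits. For DOX withdrawal, day was a linear term over 6 samples. Single days were set against the DOX sample by 3-fold on log2(TPM + 1) without a test. The same rule was applied to the 6 withdrawal samples for the trend, to these and the DOX sample (7 in all) for single days, and to the DOX and WT H1 samples for their comparison. The fits were tested on simulated data, with independent normal noise around 1 mean per gene. Few genes were changed (123 and 77 of 19100 for the lines, 200 of 17099 for the trend), and none with a mean near 0. For EED-/- against WT H1, 70.7% of true log2 changes of 2 and 89.6% of those of 3 were recovered. In the trend, 40.5% of true log2 changes of 3 were recovered, so a gene not called there may still have changed. False calls were 0 in both. Recovery and false calls for genes near 0 TPM, or where many genes change as in the PRC2-null lines, were not measured. No 2 samples held identical values (0 pairs). Alternatives were a pseudocount of 0.1, other filters, median-ratio scaling, fewer samples, an FDR of 5% without a fold limit, a replicate block and leaving out each sample. Promoter windows are those of RefSeq (GRCh38.p14). Reads, alleles and DNA methylation were not analysed here.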

Additional observations from a re-analysis of the deposited data

Results flagged for a closer look

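IGF2, CDKN1C and DLK1 were picked out because their change from WT H1 differed between PRC2-null lines when the difference itself was tested by limma. IGF2 was lower than in SUZ12-/- H1 by a log2 value of -2.86 in EED-/- H1 (adjusted p = 1.939e-05) and -2.15 in EZH2-/-/EZH1-/- H1 (adjusted p = 0.0001436). CDKN1C was lower by -3.12 (adjusted p = 7.458e-05) and -2.20 (adjusted p = 0.00086). DLK1 was lower by -4.82 (adjusted p = 4.061e-05) and -4.55 (adjusted p = 6.097e-05). In all 3 genes both SUZ12-/- samples lay above all 4 samples of the other PRC2-null lines. Both differences of a gene rest on the same SUZ12-/- samples, in which the endoderm and yolk sac marker sum was 20041 and 20869 TPM against 1547 to 4074 in the other PRC2-null samples. AFP made up most of that sum in SUZ12-/- H1, while SOX17, GATA4 and FOXA2 were lower there than in the other PRC2-null samples. The part of these marker shifts in the differences of the 3 genes was not tested. Groups of 2 samples are too small for a test of single outlying samples.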

How the results depend on the processing

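No called change turned its direction under any alternative run. With an FDR of 5% and no fold limit the number of imprinted genes called was 19 in EED-/- H1, 21 in SUZ12-/- H1, 16 in EZH2-/-/EZH1-/- H1, 25 in the PRC2-null lines together, 13 in EED-/- against SUZ12-/- H1, 14 in the double knockout against SUZ12-/- H1 and 10 in the trend, where 51.2%, 46.9%, 44.3%, 68.6%, 19.6%, 14.3% and 19.8% of all genes were called. When every one of the 12 samples had to reach a TPM of 1, which removes IGF2, DLK1 and other genes near 0 in WT H1, it was 7 in SUZ12-/- H1, 6 in the double knockout, 8 in the PRC2-null lines together, and 1 in EED-/- against SUZ12-/- H1 and 1 in the double knockout against SUZ12-/- H1. Median-ratio scaling gave 5 in EED-/- against SUZ12-/- H1 and 0 in the trend, the trend without the low-value filter gave 0, and the double knockout against SUZ12-/- H1 in its 4 samples alone gave 0. The causes were not tested. The share of all genes called was computed for the main rule and for the FDR of 5% alone. The member counts of the other alternatives, and of the runs without 1 sample, therefore have no such share beside them.

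Leaving out 1 sample at a time gave 11 to 15 genes called in EED-/-, 11 to 12 in SUZ12-/-, 8 to 11 in the double knockout and 12 to 15 in the pooled PRC2-null comparison, 3 to 6 in EED-/- against SUZ12-/-, 2 to 5 in the double knockout against SUZ12-/-, 0 to 3 in EED-/- against the double knockout, 0 to 4 in the trend and 0 in both single EZH knockouts. The replicate block left all 53 single calls it was run on in place, with 13, 12, 10 and 13 genes called in EED-/-, SUZ12-/-, double knockout and pooled PRC2-null comparisons, but the numbers only name the samples: same-numbered samples deviated together with a mean correlation of -0.003 over 15 pairs of lines (-0.121 to 0.218), over 0.1 in 1 pair. A pseudocount of 0.1 lost 0 of 57 single calls, scaling 11, no filter 9 and the 4-sample fits 6 of 40. Depth is unknown, and 2 samples a line, or 1 a day, limit every comparison.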

Other observations

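Housekeeping genes often used for scaling were not level across these lines. GAPDH was at 5926 to 8282 TPM in the 6 retaining samples and at 2418 to 2925 in the 6 PRC2-null samples, without overlap, while ACTB was at 2167 to 4140 and 2791 to 4768, with overlap. PWAR6, a noncoding transcript of the SNRPN region, was at 16.6 to 76.2 TPM in the retaining samples and 10.1 to 21.1 in the PRC2-null ones, with overlap, and SNURF, which shares the SNRPN transcript, was at 1.82 to 7.18 and 1.32 to 13.01. AIRN, antisense to IGF2R, was at 0.10 TPM or less in all 12 samples of the lines.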
